A study of Mus musculus with 8 samples.

Results

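The genes of glycolysis, glycogen breakdown and the handling of lactate and pyruvate were followed across the cell types of the prefrontal cortex (PFC) and striatum of wild-type (WT) and *Setd1a*+/- mice. A list of 32 gene symbols defined the set, with no measured value in its rule, and all 32 were among the 31053 genes of the count matrices. The cells came from 8 droplet-based single-cell RNA sequencing libraries, 2 WT and 2 *Setd1a*+/- libraries for each tissue. Each library pooled tissue of 2 male mice of a line backcrossed to the C57BL/6N strain. *Setd1a*+/- mice carry a CRISPR-Cas9 frameshift in exon 15 on 1 copy of *Setd1a*, the gene of a histone H3 lysine 4 methyltransferase, and the WT mice do not. The sample labels give an age of 8 to 10 weeks, the methods an older range that does not overlap it, and the labels give the name NAc to what the study calls striatum, the name used here. Every group thus rests on 2 libraries, and the p-values below measure the spread between such pools.

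Glycolysis converts glucose to pyruvate in the cytosol. Hexokinases trap glucose in the cell, phosphofructokinases commit it to the pathway, aldolases split the sugar, and the lower steps from *Gapdh* to *Pkm* yield ATP and pyruvate. Lactate dehydrogenase interconverts pyruvate and lactate, monocarboxylate transporters move lactate across membranes, and the mitochondrial pyruvate carrier and the pyruvate dehydrogenase complex, held back by pyruvate dehydrogenase kinases, bring pyruvate into oxidation. In the brain, glycogen is stored mainly in astrocytes, and many steps have isozymes with a bias to neurons or glia.

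*Hk2* (hexokinase 2) had its maximum in microglia and *Slc16a1* (the lactate transporter MCT1) in endothelial cells. *Ldha* (lactate dehydrogenase A) spanned 11.7-fold from its lowest to its highest PFC type. The promoters of these 3 genes of glucose trapping and lactate handling are shown. They are the 250 bases before a listed start of transcription in RefSeq on GRCm38.p6, for *Hk2* on the minus strand at chr6:82774455-82774704, for *Ldha* on the plus strand at chr7:46845554-46845803 and for *Slc16a1* on the plus strand at chr3:104638414-104638663. Capitals mark ACGTG or its reverse complement CACGT, a form of the core of the element bound by hypoxia-inducible factors. Other forms of the core were not searched. *Ldha* has a second listed start, at chr7:46846832-46847081 for its 250 bases, where these letters were not found. The palindrome CACGTG holds both, overlapping, and is also an E-box.
*Hk2*: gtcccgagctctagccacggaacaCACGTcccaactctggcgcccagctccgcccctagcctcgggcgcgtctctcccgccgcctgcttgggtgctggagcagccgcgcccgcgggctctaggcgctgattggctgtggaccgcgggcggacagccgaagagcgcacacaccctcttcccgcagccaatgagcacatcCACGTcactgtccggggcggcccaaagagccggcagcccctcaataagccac
*Ldha*: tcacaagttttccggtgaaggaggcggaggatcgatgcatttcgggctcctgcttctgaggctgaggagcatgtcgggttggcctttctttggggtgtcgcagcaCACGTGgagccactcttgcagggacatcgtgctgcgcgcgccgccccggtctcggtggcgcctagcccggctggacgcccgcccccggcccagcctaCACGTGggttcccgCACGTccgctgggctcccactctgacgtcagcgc
*Slc16a1*: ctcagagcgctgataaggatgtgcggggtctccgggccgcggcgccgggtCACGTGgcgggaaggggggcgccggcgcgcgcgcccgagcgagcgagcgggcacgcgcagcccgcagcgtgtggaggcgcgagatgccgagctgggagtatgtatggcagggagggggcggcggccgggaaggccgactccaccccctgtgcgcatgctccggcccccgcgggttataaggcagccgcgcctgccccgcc
At least 1 listed start had these letters in this window for 14 of the 30 members with an entry and for 18.5% of the 27025 genes of the table. Counted by window, 17 of the 45 windows of members had them, as did 16.6% of the 32851 windows of all genes. The genes were not matched for base composition or for their number of listed starts. Each promoter shown holds these letters, while some members with a wider range over PFC types than *Ldha*, such as *Aldoc*, *Eno2* and *Ldhb*, had no match. A match of these letters is a description and not a bound site.

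Levels are given as unique molecular identifiers (UMIs) of a gene per 1000000 UMIs summed over the cells of one type in a library (CPM), and library values follow the order WT replicates 1 and 2, then *Setd1a*+/- replicates 1 and 2. A count of 3' ends does not rank different genes, so levels are compared between cells for one gene at a time.

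The libraries held 15154268 to 26277553 UMIs, and the annotated cells numbered 8997 in the PFC and 14690 in the striatum, with a median of 2302.5 to 3042 UMIs per cell. Pairs of libraries shared 1 to 24 barcodes, at most 0.877% of the smaller library. The annotated types were excitatory neurons (EN), interneurons (IN), astrocytes (Astro), oligodendrocytes (Oligo), newly formed oligodendrocytes (NFO), oligodendrocyte progenitor cells (OPC), endothelial cells (Endo) and microglia (Micro), and in the striatum also D1 and D2 medium spiny neurons (MSNs) and a group of neural stem cells and neuroblasts (NB). Every marker of a type's list was highest in that type, except that 3 of 5 interneuron markers were highest in striatal IN. That group also held the 3 excitatory neuron markers at a summed 259 to 391 CPM, against 0 to 25.9 CPM in PFC interneurons. The endothelial groups also held mural cell markers at 3922 to 5164 CPM. *Setd1a* itself was at 8.45, 11.2, 5.59 and 9.33 CPM in the PFC and 13.4, 15.2, 9.16 and 12.5 CPM in the striatum, lower in *Setd1a*+/- than in WT within each replicate number.

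The PFC libraries of replicate 1, one of each genotype, stood apart in several of these genes. *Gapdh* (chromosome 6, 125161715-125166467, minus strand, GRCm38), which makes 1,3-bisphosphoglycerate, was at 73.1, 862, 47.1 and 889 CPM over all annotated PFC cells. *Eno1* (chromosome 4, 150236721-150248879, plus strand), the broadly expressed enolase, was at 50.1, 769.8, 31.1 and 800.04 CPM. Both replicate 1 libraries were thus far below both replicate 2 libraries, whatever the genotype, while the 4 striatal libraries were at 1038, 1063, 906 and 995 CPM for *Gapdh* and 521, 587, 450.2 and 672 CPM for *Eno1*. The replicate 2 level exceeded the replicate 1 level by 11.8-fold in WT and 18.9-fold in *Setd1a*+/- mice for *Gapdh*, and by 15.4-fold in WT and 25.7-fold in *Setd1a*+/- mice for *Eno1*. For *Gapdh*, *Eno1*, *Pfkl* (liver-type phosphofructokinase) and *Gpi1* (glucose-6-phosphate isomerase), both replicate 1 libraries were below their replicate 2 counterparts in 8 of 8 PFC cell types, and for *Tpi1* (triosephosphate isomerase) and *Eno2* (neuronal enolase) in 7 of 8.

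Of the 28 members with at least 200 UMIs over the 4 PFC libraries, 4 (*Gapdh*, *Eno1*, *Eno2* and *Pfkl*) had a replicate 1 level below the replicate 2 level by 2-fold or more in both genotypes, as did 2.61% of the 10995 genes with as many UMIs. *Slc16a1* alone was above by as much in both, at 77.3, 34.3, 73.6 and 29.7 CPM, as were 2.31% of those genes. It was highest in endothelial cells, which numbered 599, 285, 521 and 157 of the 2623, 2680, 2186 and 1508 annotated cells. Taken by cell type, both replicate 1 libraries were above both replicate 2 libraries in 2 of 8 PFC types. The part of cell composition in its level was not tested. The lower level in replicate 1 was not shared by all steps, with *Pgk1* (phosphoglycerate kinase) at 292, 301, 416 and 296 CPM and *Ldha* at 403, 437, 524 and 367 CPM. Barcodes with 1 to 50 UMIs that are not annotated cells, taken as free RNA, had the same pattern, with *Gapdh* at 64.7, 846, 54.6 and 1066 CPM and *Eno1* at 25.8, 753, 21.1 and 812 CPM. The last 200 bases of the transcript were 52.25% G or C at the median of the 4 members that were lower and 39.75% at the median of the other 24. Across genes, as a description of the same libraries, the log2 ratio of replicate 1 to replicate 2 had a Spearman's rho with this share of -0.65 over the 28 members and -0.32 over 10987 genes. The part of base composition in the split was not tested. A similar gene, *Eno1b*, took 220, 107, 60 and 45 UMIs in the PFC beside 492, 8213, 256 and 4800 for *Eno1*. Reads shared between such copies, and between *Gapdh* and its processed pseudogenes, were not measured and leave those counts uncertain.

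**Figure D1:**
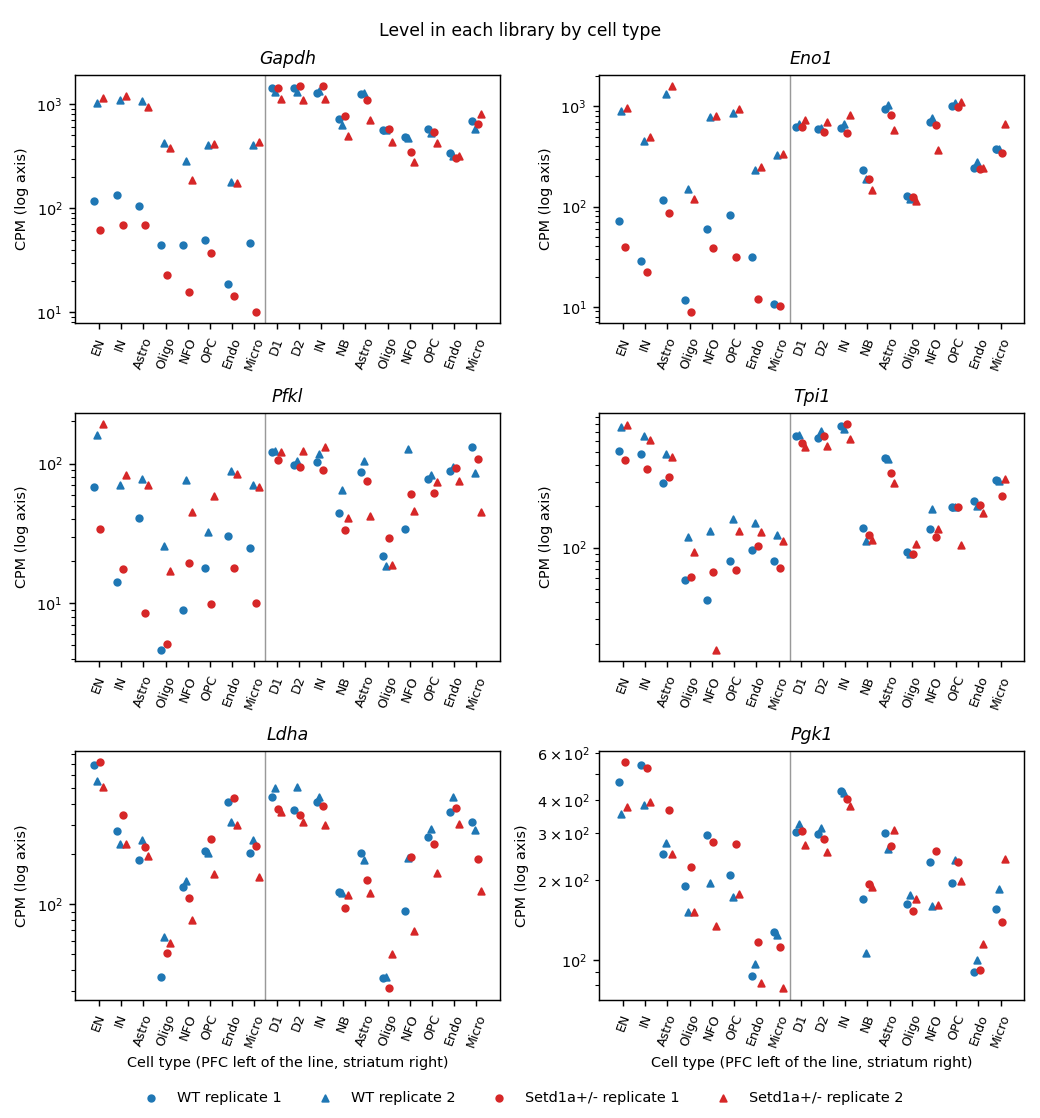
Level of 6 genes (CPM, logarithmic axis) in each library by annotated cell type, PFC types left and striatal types right, blue for WT, red for *Setd1a*+/-, circles for replicate 1 and triangles for replicate 2. For *Gapdh* and *Eno1* the PFC circles lie below the triangles of the same colour in all 8 types, for *Ldha* in 1 and for *Pgk1* in none.

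The split is balanced between genotypes, but it widens the spread of these genes in the PFC and enters every comparison of PFC with striatum. The comparisons of PFC with striatum are therefore given with and without both replicate 1 libraries, a choice made after the data were seen, and the cell type contrasts of the PFC where leaving them out moved a named fold change by over 1.5 times.

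The type with the highest level differed between members. In the PFC 10 of the 32 genes were highest in astrocytes, 10 in excitatory neurons, 7 in interneurons, 2 each in endothelial cells and microglia and 1 in newly formed oligodendrocytes. In the striatum 9 were highest in astrocytes, 6 in D1 MSNs, 3 in D2 MSNs and 6 in interneurons. The highest type was at least 3 times the median over types for 17 genes in the PFC and 8 in the striatum. It lay above every other type in every library for 12 and 8. These counts were taken for the members only, with no share of all genes beside them. Oligodendrocytes were the lowest type for 9 genes in the PFC and 11 in the striatum, and endothelial cells for 10 and 5. Newly formed oligodendrocytes were lowest for 8 in the PFC and 3 in the striatum, and the neuroblast group for 7 in the striatum. The same type was highest in both tissues for 14 of the 32. Excitatory neurons were annotated only in the PFC and MSNs only in the striatum, so genes highest in them could not match.

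**Figure D2:**
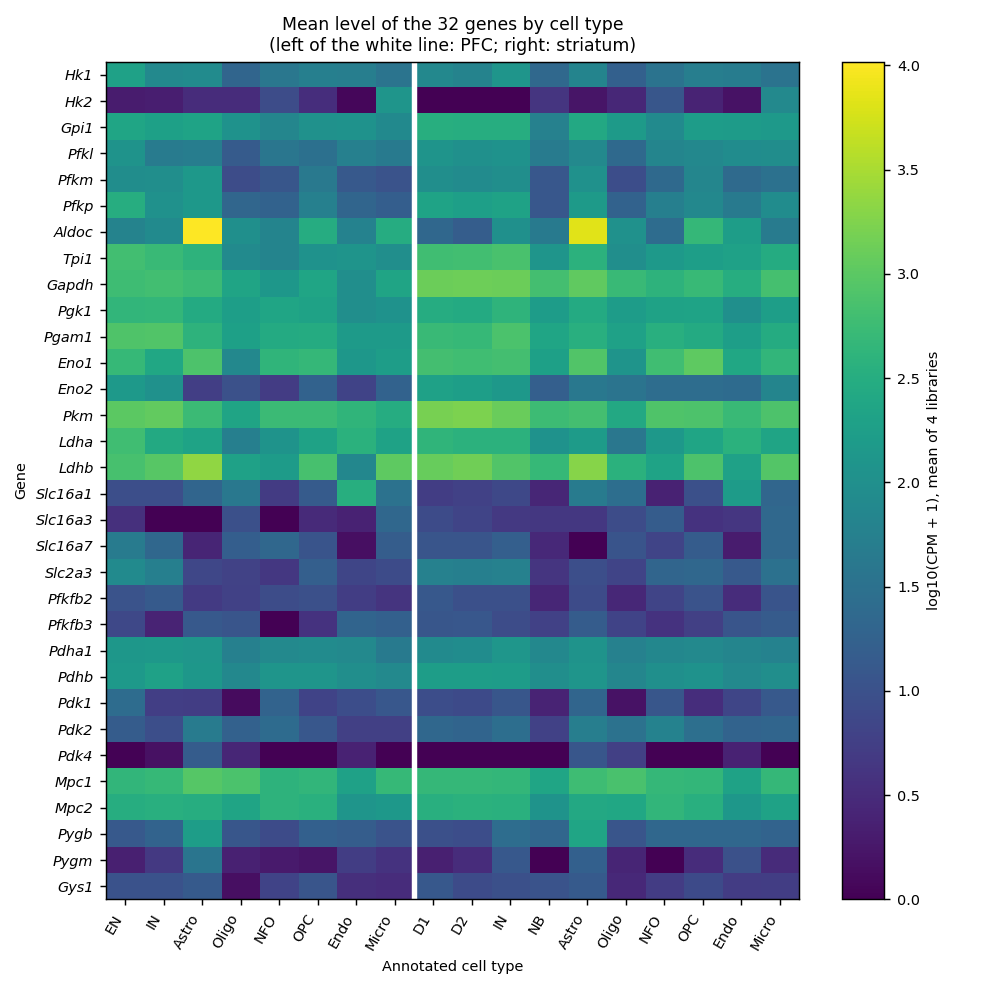
Mean level of each of the 32 genes, as log10(CPM + 1) over 4 libraries, in the 8 PFC and 10 striatal cell types. *Aldoc*, *Pygb* and *Pygm* are highest in astrocytes, *Slc16a1* in endothelial cells and *Hk2* in microglia of both tissues.

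Astrocytes carried the brain aldolase and the glycogen phosphorylases. *Aldoc* (chromosome 11, 78322968-78327781, plus strand), aldolase C, was at 9933, 9751, 11740.5 and 10182 CPM in PFC astrocytes and 7328, 9314, 6551 and 4279 CPM in striatal astrocytes, and the mean of any other type was at most 474 CPM. All 8 astrocyte values lay above the values of every other type of the same tissue. *Pygb*, the brain glycogen phosphorylase, was at 169, 202, 137 and 179 CPM in PFC and 203, 216, 247 and 244 CPM in striatal astrocytes, again above every other type in every library. *Pygm*, the muscle form, was at 31.4, 51.3, 17.1 and 40.7 CPM in PFC astrocytes, above every other type in every library, and 17.2, 24.5, 12.4 and 10.6 CPM in striatal ones, the lowest on 1 UMI. Striatal interneurons, at a mean of 11.7 CPM, were not separate from these.

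Cell types were set against each other within libraries with edgeR's quasi-likelihood test, and a gene was called at FDR < 0.05 and a fold change above 2. The types are clusters of these cells, so the tests describe the size and spread of differences between clusters. Against excitatory neurons, 8 of 29 members tested were higher in PFC astrocytes and 6 lower, where 18.7 and 31.4% of all genes were. The median log2 fold change was 0.05 for the members and -0.33 for all genes. The 3 largest increases were *Aldoc* (log2 fold change 7.55 ± 0.10 SE), *Pygm* (4.97 ± 0.45) and *Pygb* (4.01 ± 0.20). The 3 largest decreases were *Eno2* (-4.66 ± 0.35), *Slc16a7* (-4.56 ± 0.58), the neuronal monocarboxylate transporter MCT2, and *Slc2a3* (-3.57 ± 0.38), the neuronal glucose transporter GLUT3. Without the PFC replicate 1 libraries *Slc16a7* was at -3.51 ± 0.70 and *Slc2a3* at -4.22 ± 0.63, both still called.

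In the striatum, 6 of 29 members were higher in astrocytes than in D1 MSNs and 5 lower, where 21.8 and 19.1% of all genes were, with medians of -0.03 and -0.04. *Aldoc* (8.53 ± 0.31), *Pygb* (4.94 ± 0.20) and *Pygm* (4.13 ± 0.49) had the largest increases here too. *Slc16a7* had 0 UMIs in striatal astrocytes, and with a floor of 3 UMIs over the 4 libraries D1 MSNs were at least 7.51-fold higher. *Slc2a3* (-2.78 ± 0.34) and *Eno2* (-2.49 ± 0.25) were the next largest decreases.

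Members that act on pyruvate and lactate went both ways in PFC astrocytes. *Mpc1*, a subunit of the mitochondrial pyruvate carrier, was at 864, 653, 1350.1 and 713 CPM there and 411, 379, 536 and 403 CPM in excitatory neurons (log2 fold change 1.19 ± 0.10), without overlap. *Ldhb*, the dehydrogenase subunit that favours lactate use, was at 2131, 1877, 2939 and 2102 CPM, above every other PFC type in every library (1.86 ± 0.08 against excitatory neurons). *Ldha* (-1.33 ± 0.13), *Pdk1* (-2.61 ± 0.57), a kinase that inhibits pyruvate dehydrogenase, and *Slc16a7*, above, were lower, and *Ldha* was at -0.95 ± 0.16 and not called without the PFC replicate 1 libraries. The kinases *Pdk2* and *Pdk4* had their PFC maximum in astrocytes on few UMIs. *Pdk2* was at 31.4, 65.99, 17.1 and 67.8 CPM in PFC astrocytes on 2 to 25 UMIs. *Pdk4* was at 12.1, 10.998, 25.6 and 5.42 CPM in PFC astrocytes, on 2 to 5 UMIs, and 5.15, 24.5, 14.6 and 0 CPM in striatal ones. It had 0 UMIs in D1 and D2 MSNs, so that striatal astrocytes were at least 58.9-fold and 39.5-fold higher.

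Endothelial cells carried *Slc16a1* (chromosome 3, 104638668-104658462, plus strand) and had less of most other members. *Slc16a1* was at 312, 329, 383 and 277 CPM in PFC endothelial cells and 117, 146, 116 and 262 CPM in striatal ones, above all other types in every library. It was 42.6-fold higher than in excitatory neurons (log2 fold change 5.41 ± 0.13) and 39.2-fold higher than in D1 MSNs (5.29 ± 0.16). Of 28 members tested in the PFC 2 were higher and 20 lower than in excitatory neurons, where 25.2 and 29.6% of all genes were, with a median of -1.51 for the members and -0.09 for all genes. The other gene that was higher was *Pfkfb3* (1.64 ± 0.25), which makes an activator of phosphofructokinase. The largest decreases were *Slc16a7* (-6.49 ± 0.41), *Eno2* (-4.75 ± 0.21) and *Slc2a3* (-4.09 ± 0.23). Without the PFC replicate 1 libraries *Slc16a7* was at -5.58 ± 0.68 and *Slc2a3* at -3.34 ± 0.38, both still called.

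In the striatum 4 of 30 members were higher in endothelial cells than in D1 MSNs and 16 lower, where 26.1 and 22.6% of all genes were, with medians of -1.11 and 0.03. After *Slc16a1*, *Aldoc* (3.17 ± 0.18) and *Pygm* (3.01 ± 0.40) were the largest increases, and *Slc16a7* (-3.28 ± 0.44), *Eno2* (-2.91 ± 0.20) and *Ldhb* (-2.48 ± 0.09) the largest decreases. The 4 astrocyte markers together were at 94.7 to 204 CPM in these endothelial libraries and 54.4 to 81.4 CPM in D1 MSNs, and their part in the result was not tested. *Ldha* and *Ldhb* differed in the PFC vasculature. *Ldha* was at 412, 313, 435 and 302 CPM in PFC endothelial cells and 689, 553, 713 and 509 CPM in excitatory neurons, and *Ldhb* at 61.6, 74.2, 79.6 and 74.8 and 707, 603, 793 and 694 CPM.

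Microglia had the highest level of *Hk2* (chromosome 6, 82725025-82774454, minus strand), whose promoter is shown above. It was at 93.96, 151, 50.6 and 205 CPM in PFC and 83.97, 47.2, 112 and 59.8 CPM in striatal microglia, above all other types in every library, and its log2 fold change against excitatory neurons was 7.19 ± 0.35. It had 0 UMIs in D1 and D2 MSNs and in striatal interneurons, and microglia were at least 340-fold, 228-fold and 116-fold higher. *Slc16a3*, the monocarboxylate transporter MCT4 of glycolytic cells, also had its maximum in microglia, at 21.3, 37.9, 0 and 24.4 CPM in the PFC and 25.2, 25.8, 22.3 and 14.9 CPM in the striatum, on 0 to 12 UMIs per library. *Hk1*, hexokinase 1, was lower in PFC microglia than in excitatory neurons (log2 fold change -2.26 ± 0.28).

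Of 29 members 4 were higher in PFC microglia than in excitatory neurons and 15 lower, where 19.7 and 33.1% of all genes were, with medians of -1.22 and -0.43. Beside *Hk2*, *Aldoc* (2.55 ± 0.20) and *Slc16a1* (2.12 ± 0.43) were the largest increases, and *Pfkp* (-4.36 ± 0.33), the platelet-type phosphofructokinase, *Slc2a3* (-3.22 ± 0.44) and *Eno2* (-2.94 ± 0.34) the largest decreases. Without the PFC replicate 1 libraries *Pfkp* was at -2.91 ± 0.31, *Slc2a3* at -2.07 ± 0.47 and *Eno2* at -2.14 ± 0.31, all still called. In the striatum 4 of 29 were higher than in D1 MSNs and 3 lower, where 13.8 and 6.62% of all genes were, with medians of -0.45 and -0.06. The genes were *Hk2*, *Slc16a3* (1.94 ± 0.50), *Aldoc* (1.60 ± 0.34) and *Pygb* (1.47 ± 0.53), and *Pfkm* (-1.26 ± 0.29), the muscle-type phosphofructokinase, *Eno2* (-1.15 ± 0.22) and *Pfkp* (-1.08 ± 0.21). Without the *Setd1a*+/- replicate 1 library of the striatum 4 members were called in place of 7, and the share of all genes was not taken for that fit.

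Markers of other types were found in microglia. The 4 astrocyte markers together were at 275 to 465 CPM in PFC microglia and 13.51 to 21.03 CPM in PFC excitatory neurons. The 4 endothelial markers were at 229 to 1134 and 5.68 to 12.7 CPM and the 4 mural markers at 166 to 841 and 9.93 to 19.03 CPM. In striatal microglia the 3 D1 MSN markers together were at 696 to 1014 CPM and the 3 D2 MSN markers at 692 to 1195 CPM, with none at 0, against 0 to 3.55 and 1.77 to 21.6 CPM in PFC microglia. The part of these cells' RNA in the differences was not tested.

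Mature oligodendrocytes differed from their progenitors in *Eno1*, *Ldha* and *Mpc1* in both tissues, while *Mpc2* was called in neither and *Ldhb* in the PFC only. In the PFC 4 of 21 members were higher in oligodendrocytes than in OPCs and 5 lower, where 16.2 and 18.6% of all genes were, with medians of -0.07 and -0.00. In the striatum 2 of 22 were higher and 7 lower, where 14.3 and 19.9% were, with medians of -0.35 and -0.09. *Eno1* (PFC -2.16 ± 0.14, striatum -2.59 ± 0.10), *Pfkm* (-1.93 ± 0.29 and -2.48 ± 0.25) and *Ldha* (-1.45 ± 0.15 and -2.33 ± 0.13) were the largest decreases in both tissues. *Slc16a1* (2.11 ± 0.25 and 1.73 ± 0.33) and *Mpc1* (1.38 ± 0.09 and 1.22 ± 0.10) rose in both, and *Pdk2* (1.15 ± 0.38) was the next largest increase in the PFC, at 0.60 ± 0.38 and not called without the PFC replicate 1 libraries. *Mpc1* was at 732, 714, 916 and 674 CPM in PFC oligodendrocytes and 411, 374, 551 and 396 CPM in OPCs. *Ldha* was at 36.5, 64.03, 50.99 and 58.6 and 209.9, 203, 247 and 153 CPM. The types did not overlap for either gene.

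Excitatory neurons held the highest PFC levels of hexokinase 1, platelet-type phosphofructokinase and the transporters GLUT3 and MCT2. In PFC excitatory neurons *Hk1* was at 240.3, 173, 193 and 174 CPM, *Pfkp* at 364, 291, 327 and 296 CPM, *Slc2a3* at 90.1, 74.9, 96.2 and 74.6 CPM and *Slc16a7* at 54.05, 44.8, 38.1 and 46.3 CPM. Each of these 4 genes was above every other PFC type in every library. In the striatum *Hk1*, *Pfkp* and *Slc2a3* had their maximum in interneurons or D1 MSNs, but *Slc16a7* in microglia, at 16.8, 12.9, 13.4 and 44.8 CPM on 3 to 4 UMIs per library, with interneurons next at 11.4, 16.5, 16.01 and 18.9 CPM. *Eno2* was at 96.7, 238, 80.2 and 168 CPM in excitatory neurons, with the replicate split described above, and at 157, 209, 213 and 209 CPM in D1 MSNs, its striatal maximum. *Tpi1* and *Pdk1*, another kinase of pyruvate dehydrogenase, had their PFC maximum in excitatory neurons too, at 509.7, 761, 439 and 779 CPM and 26.2, 23.96, 31.2 and 20.1 CPM, without standing above all other types in every library. *Pfkm* had its PFC maximum in astrocytes, at 135, 114, 145 and 165 CPM, with interneurons next at a mean of 94.4 CPM and not separate in every library.

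The remaining 15 members had no type at 3 times the median over types. *Gpi1* ranged from 67.8 CPM in newly formed oligodendrocytes to 231 CPM in excitatory neurons of the PFC and from 56.3 CPM in the neuroblast group to 334 CPM in D1 MSNs of the striatum. *Pfkl* ranged from 13.2 CPM in oligodendrocytes to 113 CPM in excitatory neurons of the PFC and from 22.2 CPM in oligodendrocytes to 118 CPM in D1 MSNs of the striatum, and *Gapdh* from 96.01 CPM in endothelial cells to 622 CPM in interneurons of the PFC and from 318 CPM in endothelial cells to 1332 CPM in D2 MSNs of the striatum, both with the replicate split in the PFC. *Pgk1* ranged from 95.6 CPM in endothelial cells to 462 CPM in interneurons of the PFC and from 99.04 CPM in endothelial cells to 410.2 CPM in interneurons of the striatum. Next in the pathway, phosphoglycerate mutase (*Pgam1*) ranged from 154 CPM in endothelial cells to 842 CPM in interneurons of the PFC and from 175 CPM in endothelial cells to 755 CPM in interneurons of the striatum. *Eno1* ranged from 72.7 CPM in oligodendrocytes to 783 CPM in astrocytes of the PFC and from 121 CPM in oligodendrocytes to 1054 CPM in OPCs of the striatum, also with the split. Pyruvate kinase, *Pkm*, which makes pyruvate, ranged from 223 CPM in oligodendrocytes to 1135 CPM in interneurons of the PFC and from 267 CPM in oligodendrocytes to 1685 CPM in D2 MSNs of the striatum. Oligodendrocytes or endothelial cells were thus the lowest type for all of these but *Gpi1*.

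*Ldha* ranged from 52.5 CPM in oligodendrocytes to 616 CPM in excitatory neurons of the PFC and from 38.5 CPM in oligodendrocytes to 419 CPM in D1 MSNs of the striatum. For the pyruvate carrier, *Mpc1* ranged from 196 CPM in endothelial cells to 895 CPM in astrocytes of the PFC and from 207 CPM in endothelial cells to 729 CPM in oligodendrocytes of the striatum, and *Mpc2* from 123 CPM in endothelial cells to 392 CPM in newly formed oligodendrocytes of the PFC and from 115 CPM in the neuroblast group to 442 CPM in newly formed oligodendrocytes of the striatum. Of the pyruvate dehydrogenase subunits, *Pdha1* ranged from 44.5 CPM in microglia to 138 CPM in interneurons of the PFC and from 56.3 CPM in oligodendrocytes to 129 CPM in interneurons of the striatum and *Pdhb* from 73.6 CPM in oligodendrocytes to 198 CPM in interneurons of the PFC and from 67.6 CPM in oligodendrocytes to 172 CPM in D2 MSNs of the striatum. The last 3 genes act on glycogen storage and on phosphofructokinase. Glycogen synthase (*Gys1*) ranged from 0.453 CPM in oligodendrocytes to 12.8 CPM in astrocytes of the PFC and from 1.86 CPM in oligodendrocytes to 12.7 CPM in astrocytes of the striatum. The bifunctional enzymes that set the activator of phosphofructokinase were *Pfkfb2*, from 2.98 CPM in microglia to 12.9 CPM in interneurons of the PFC and from 1.68 CPM in the neuroblast group to 12.004 CPM in D1 MSNs of the striatum, and *Pfkfb3*, from 0 CPM in newly formed oligodendrocytes to 18.5 CPM in endothelial cells of the PFC and from 2.84 CPM in newly formed oligodendrocytes to 13.999 CPM in astrocytes of the striatum.

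Subtypes of excitatory neurons, named by layer and marker, are clusters of these same cells, and their levels are described without a test. Deep-layer *Foxp2* neurons had *Pfkp* at 479, 371, 418 and 424 CPM and deep-layer *Tshz2* neurons at 216, 211, 217 and 192 CPM. *Aldoc* was at 318, 194, 289 and 218 CPM in *Tshz2* neurons, where the means of the other 5 subtypes with at least 10 cells in every library were 25.9 to 51.4 CPM. Free RNA held *Aldoc* at 596, 395, 492 and 590 CPM in the same libraries, and its part was not tested. *Pdk1* was also highest in *Tshz2* neurons, at 55.1, 48.5, 53.1 and 66.1 CPM. *Ldhb* was at 1162, 998, 1266 and 1084 CPM in *Tshz2* neurons and 424, 448, 517 and 540.5 CPM in deep-layer *Etv1* neurons.

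Shares within a set of isozymes, or of subunits for the pyruvate carrier and pyruvate dehydrogenase, are a description with no test. The share of *Ldhb* among lactate dehydrogenase UMIs was 88.6 to 92.97% in PFC and 90.4 to 93.2% in striatal astrocytes over the 4 libraries, 50.7 to 57.7% in excitatory neurons, 71.2 to 78.4% in D1 MSNs, and 13.02 to 19.9% in PFC and 28.1 to 45.1% in striatal endothelial cells. These ranges order astrocytes above D1 MSNs, D1 MSNs above excitatory neurons, and excitatory neurons above endothelial cells. The share of *Slc16a1* among the 3 lactate transporters was 99.1 to 99.7% in PFC and 95.1 to 98.6% in striatal endothelial cells, and *Slc16a7* made up 79.9 to 81.9% in excitatory neurons and 43.2 to 52.4% in D1 MSNs. *Hk2* made up 55.6 to 84.8% of the summed *Hk1* and *Hk2* UMIs in PFC and 64.7 to 75.8% in striatal microglia, where the set had as few as 6 UMIs in a library, and 0.439 to 0.718% in excitatory neurons.

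*Mpc1* made up 76.6 to 78.8% of pyruvate carrier UMIs in PFC and 74.1 to 76.1% in striatal oligodendrocytes, against 52.6 to 58.96% and 51.96 to 61.2% in OPCs. *Pfkp* made up 67.6, 53.9, 71.8 and 52.3% of phosphofructokinase UMIs in excitatory neurons and 48.8 to 51.2% in D1 MSNs. In excitatory neurons the 2 higher shares were in the replicate 1 libraries, where *Pfkl* made up 12.5 and 7.45%, against 29.7 and 33.8% in replicate 2. Enolase shares show the same library split. *Eno2* made up 57.4, 20.95, 66.8 and 14.98% in excitatory neurons, with the 2 high shares in replicate 1 of each genotype, while D1 MSNs stayed within 20.05 to 25.7%. *Pdha1* made up 45.9 to 50.4% of pyruvate dehydrogenase E1 UMIs in excitatory neurons and 30.9 to 36.7% in D1 MSNs.

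**Figure D3:**
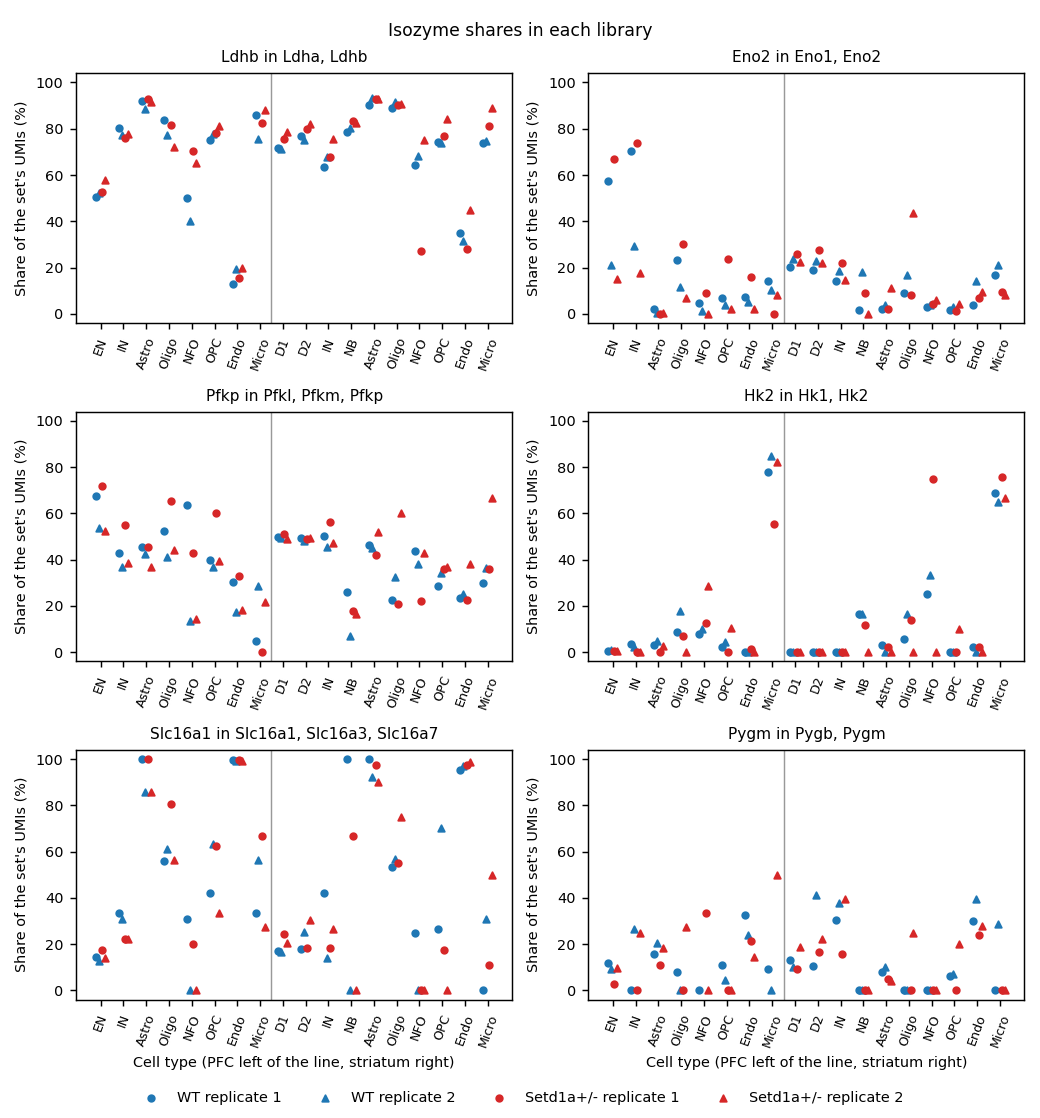
Share (%) of one isozyme in the summed UMIs of its set, one point per library, in PFC types (left) and striatal types (right), blue for WT, red for *Setd1a*+/-, circles for replicate 1 and triangles for replicate 2. *Ldhb* is high in astrocytes and lowest in endothelial cells, *Slc16a1* nears its ceiling in endothelial cells, and PFC excitatory neurons split by replicate for *Eno2*.

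The same cell types were then compared between tissues with genotype in the model. Over 7 types found in both, 18 of 143 gene and cell type pairs were called (FDR < 0.05 and fold change above 1.5), as were 6.63% of the pairs of all genes, and 16 of the 18 were higher in the striatum. Astrocytes, newly formed oligodendrocytes and OPCs had none by edgeR without the replicate block, and DESeq2 called *Aldoc* in astrocytes in addition. Each tissue was dissected and sequenced as libraries of its own, and by the methods the striatum had a longer papain digestion than the PFC. Tissue, digestion time and library preparation therefore cannot be told apart. Without both PFC replicate 1 libraries 10 pairs were called, beside 3.51% of the pairs of all genes, and 5 of the 10 were among the 18. Of the other 5, *Eno1* and *Pygm* in astrocytes and *Hk2* in microglia were lower in the striatum. *Gapdh* in endothelial cells and *Ldha* in interneurons were higher. Without cells above 2 times the median UMIs 12 of the 18 were called and no other pair was, beside 3.71% of the pairs of all genes. The 6 lost were *Eno2* and *Pfkp* in endothelial cells, *Pfkp* and *Pgam1* in microglia, *Pfkl* in interneurons and *Ldhb* in oligodendrocytes. With the replicate block 24 were called, beside 8.18% of the pairs of all genes. Here the block joins equal replicate numbers of PFC and striatum, which the methods do not tie, and the replicate split described above was in PFC libraries. Of the pairs it added, only *Gapdh* in endothelial cells was also called without both PFC replicate 1 libraries. The 6 added by the block were *Aldoc* in OPCs (log2 fold change with the block 0.66 ± 0.14, SE), *Pfkl* in OPCs (1.52 ± 0.30), *Eno1* in interneurons (2.02 ± 0.51), *Gapdh* in endothelial cells (2.42 ± 0.53), *Gapdh* in microglia (2.02 ± 0.61) and *Gapdh* in newly formed oligodendrocytes (2.09 ± 0.41), all higher in the striatum.

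Striatal interneurons had 5 of 23 members higher and none lower, where 5.90% of all genes were higher. *Pfkp* was at 97.2, 87.6, 139.8 and 106 CPM in the PFC and 199.95, 190.0, 204 and 213 CPM in the striatum (log2 fold change 0.94 ± 0.16, FDR = 0.00098, edgeR), and *Pdk2* at 14.3, 7.97, 4.44 and 6.62 CPM in the PFC and 27.3, 32.1, 23.4 and 28.3 CPM in the striatum (1.79 ± 0.35, FDR = 0.0031, edgeR). The tissues did not overlap for either gene, and both were called under all 15 alternatives. *Pdk2* rested on few UMIs in each PFC library. *Hk1* was at 74.3, 89.6, 77.7 and 62.9 CPM in the PFC and 133, 136, 115 and 106 CPM in the striatum (0.69 ± 0.17), also without overlap, but it was not called without PFC WT replicate 1 or without both PFC replicate 1 libraries (log2 fold change 0.65, adjusted p = 0.064, edgeR).

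*Gpi1* was at 140.0, 231, 139.8 and 255 CPM in the PFC and 321, 310.1, 341 and 290.4 CPM in the striatum (0.74 ± 0.20), and without the PFC replicate 1 libraries its log2 fold change was 0.37 (adjusted p = 0.188, edgeR). *Pfkl* was at 14.3, 69.7, 17.8 and 82.7 CPM in the PFC and 103, 117, 89.9 and 131 CPM in the striatum (1.29 ± 0.37), and without them its log2 fold change was 0.54 (adjusted p = 0.193, edgeR). The PFC values of both genes were lower in replicate 1. The excitatory neuron markers of striatal interneurons, given above, move with this comparison, and their part in it was not tested.

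In oligodendrocytes *Ldhb* alone was called of 22 members, where 1.34% of all genes were higher, at 189.6, 219, 224 and 153 CPM in the PFC and 291, 387, 289 and 497 CPM in the striatum (0.91 ± 0.20). The tissues did not overlap, and the adjusted p was 0.036 by edgeR with all libraries and without both of PFC replicate 1. The call was lost without cells of high UMI counts and in 6 of the 8 fits that each left out 1 library, namely those without PFC WT replicate 1, PFC *Setd1a*+/- replicate 2 or any striatal library. Free RNA held *Ldhb* at 782 to 961 CPM in the PFC and 949 to 1317 CPM in the striatum. The 3 D1 MSN markers together were at 79.7, 126, 65.9 and 283 CPM in striatal and 9.85, 13.55, 25.5 and 2.86 CPM in PFC oligodendrocytes, and the 3 D2 MSN markers at 88.7, 151, 70.6 and 327 and 0, 7.39, 0 and 0 CPM. In the striatum both lists were highest in the library where *Ldhb* was highest, and their part in the result was not tested.

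Endothelial cells had 6 of 26 members higher in the striatum and 1 lower, where 4.88 and 1.17% of all genes were, with a median log2 fold change of 0.66 for the members and -0.01 for all genes. *Ldhb* was at 61.6, 74.2, 79.6 and 74.8 CPM in the PFC and 193, 206, 148 and 249.5 CPM in the striatum (1.49 ± 0.19, FDR = 0.00091, edgeR), without overlap, and it was called under all 15 alternatives. *Slc16a1* was the member that was lower (-1.05 ± 0.23), and its values, given above, did not overlap between tissues. *Aldoc* was at 95.2, 74.2, 45.1 and 26.5 CPM in the PFC and 273, 109.8, 222 and 91.1 CPM in the striatum (1.60 ± 0.35), where the highest PFC library lay above the lowest striatal one.

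*Tpi1* was at 96.2, 151, 103 and 130.2 CPM in the PFC and 218, 201, 203 and 180.3 CPM in the striatum (0.79 ± 0.18), and *Pfkp* at 19.03, 22.5, 15.8 and 19.3 CPM in the PFC and 32.01, 42.1, 32.5 and 61.9 CPM in the striatum (1.11 ± 0.26), both without overlap. *Eno2* was at 2.505, 11.9, 2.25 and 4.82 CPM in the PFC and 9.66, 46.04, 17.1 and 25.5 CPM in the striatum (2.47 ± 0.60) and overlapped. *Pdk2* was at 6.01, 3.98, 1.502 and 7.24 CPM in the PFC and 16.3, 28.9, 17.1 and 9.11 CPM in the striatum (2.14 ± 0.41), without overlap, and both genes had as few as 2 UMIs in a PFC library. Without the PFC replicate 1 libraries, and so with fewer libraries in the fit, *Ldhb* alone of these 7 was called. The log2 fold changes were then 1.38 for *Ldhb*, -1.02 for *Slc16a1*, 1.77 for *Aldoc*, 1.86 for *Pdk2*, 0.87 for *Pfkp*, 0.49 for *Tpi1* and 1.4 for *Eno2*. The D1 MSN markers were at a summed 76.03 to 406 CPM in striatal endothelial cells, and all 3 were at 0 in PFC ones, while the D2 MSN markers were at 151 to 259 and 25.5 to 27.8 CPM. The part of these cells' RNA in the differences was not tested.

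Microglia had 4 of 17 members higher in the striatum and 1 lower, where 12.5 and 8.95% of all genes were. *Pkm* was at 293, 373, 253 and 298 CPM in the PFC and 739, 846, 580.2 and 986 CPM in the striatum (1.24 ± 0.24), *Tpi1* at 79.8, 124, 70.9 and 112 CPM in the PFC and 311, 305, 237 and 314 CPM in the striatum (1.45 ± 0.26) and *Pgam1* at 152, 173, 152 and 146 CPM in the PFC and 361, 326, 245 and 254 CPM in the striatum (0.82 ± 0.22). *Pfkp* was at 1.77, 32.5, 0 and 24.4 CPM in the PFC and 75.6, 73.02, 62.5 and 149 CPM in the striatum (2.52 ± 0.65). The tissues did not overlap for any of these 4, the MSN markers of striatal microglia given above move with them, and none of the 4 was called without the PFC replicate 1 libraries. The log2 fold changes were then 0.99 for *Pkm*, 1.05 for *Tpi1*, 0.66 for *Pgam1* and 1.28 for *Pfkp*, with fewer libraries in the fit. *Aldoc* was lower in striatal microglia, at 159.6, 357, 354 and 371 CPM in the PFC and 71.4, 25.8, 71.4 and 14.9 CPM in the striatum (-2.64 ± 0.41, FDR = 0.0016, edgeR), and was called under all 15 alternatives. The astrocyte markers together were at 275 to 465 CPM in PFC and 44.8 to 134 CPM in striatal microglia, and their part in the result was not tested.

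Free RNA touches most of these results. For 12 of the 18 pairs all 8 libraries were at or below the free RNA level of the same library, for 5 some were, and for 1, *Slc16a1* in endothelial cells, none was. Among the 12 were *Ldhb* in endothelial cells and oligodendrocytes and *Aldoc* in endothelial cells and microglia, and free RNA held *Aldoc* at 395 to 596 CPM in the PFC and 214 to 350.1 CPM in the striatum. *Pfkp* in interneurons was at or below it in all 4 PFC libraries and 1 striatal library, *Pdk2* in 2 and 1, and *Hk1* in 4 and 0. The part of free RNA in the differences was not tested.

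**Figure D4:**
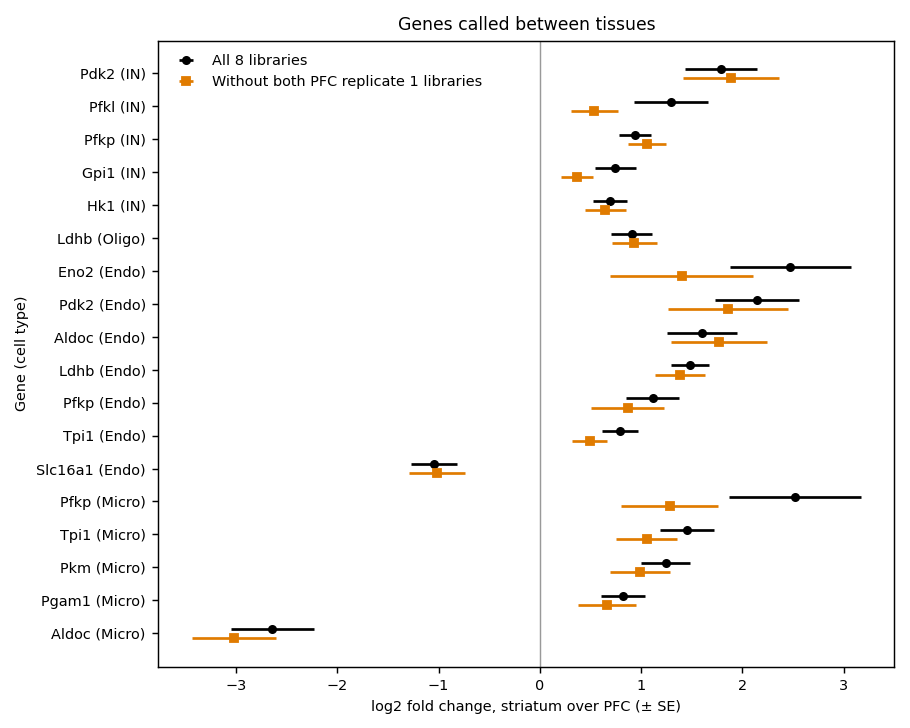
Log2 fold change of striatum over PFC, with standard error bars, for the 18 gene and cell type pairs called, with all 8 libraries and without both PFC replicate 1 libraries. All 18 keep their direction, *Pfkl* in interneurons moves from 1.29 to 0.54, and *Ldhb* in endothelial cells from 1.49 to 1.38.

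The effect of *Setd1a* heterozygosity was tested in 24 groups of cells, and 524 gene and cell type pairs passed the filter on low counts. *Pdk4* passed in none and 12 members passed in all 24. No member was called in PFC cell types, in excitatory neuron subtypes or in striatal cell types, where 0.0, 0.0 and 0.00544% of the pairs of all genes were (edgeR, FDR < 0.05 and fold change above 1.5 in the PFC and 2 in the striatum). DESeq2 called none either. At an unadjusted p under 0.05 edgeR gave 2 of 162, 1 of 138 and 3 of 224 pairs of members. By edgeR 1.7, 1.6 and 2.62% of the pairs of all genes were under it too. DESeq2 gave 1, 0 and 0 pairs of members, and its share of all genes was not taken. In D1 MSNs the median log2 fold change of 29 members was -0.02 with a median SE of 0.17, and in PFC excitatory neurons that of 29 members was -0.01 with a median SE of 0.24. The median farthest from 0 was in striatal astrocytes, at -0.30 with a median SE of 0.32 and with 2 of 23 members positive, where the median of all 7009 genes was -0.03 and 3315 were positive. The *Setd1a*+/- replicate 2 library had 31 astrocytes there, against 214 to 354 in the others, with astrocyte markers at 4049, 3864, 3732 and 2538 CPM and D2 MSN markers at 219.8, 218, 118 and 542 CPM over the 4 libraries. Their part in the result was not tested. Without that library the members' median was -0.21, with 6 of 26 positive, without *Setd1a*+/- replicate 1 it was -0.61, and without WT replicate 1 it was -0.45.

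Of these 6 pairs, none of them called, *Aldoc* in PFC endothelial cells was lower in both *Setd1a*+/- libraries, at 95.2, 74.2, 45.1 and 26.5 CPM (log2 fold change -1.14 ± 0.30, FDR = 0.999, edgeR). With the replicate block the FDR was 0.042 by edgeR, and it was the only pair of members called of 162, beside 0.0508% of the pairs of all genes. The astrocyte markers together were at 131, 201, 114 and 128 CPM in the same libraries, and free RNA held *Aldoc* above all 4 levels, as given above. Their part in the difference was not tested. *Aldoc* in deep-layer *Nnat* neurons was at 62.8, 58.6, 30.1 and 39.6 CPM (-0.82 ± 0.30).

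*Ldhb* in newly formed oligodendrocytes was at 128, 91.8, 257 and 152 CPM in the PFC (0.92 ± 0.36) and 165, 413, 71.02 and 207 CPM in the striatum (-1.32 ± 0.54), on 9 to 66 UMIs per library, without overlap of the genotypes in the PFC and with overlap in the striatum. Free RNA was above all 8 of these levels. The D2 MSN markers together were at 51.1, 571, 49.2 and 184 CPM in the striatal libraries, highest and lowest in the same libraries as *Ldhb*, and the D1 MSN markers at 539.9, 52.9, 32.8 and 161 CPM, while all 3 D2 MSN markers were at 0 in the PFC. Their part in the result was not tested. The interaction of genotype and tissue for this pair was -2.21 ± 0.71 on the log2 scale, with an unadjusted p of 0.0071 by edgeR, and was not called. Over all 143 pairs no interaction was called by edgeR, as for 0.0% of the pairs of all genes, and this pair was the only one at an unadjusted p under 0.05. *Slc16a1* in striatal astrocytes was at 22.3, 24.5, 42.8 and 95.6 CPM (1.17 ± 0.47). *Pdk1* in striatal interneurons was at 6.06, 8.23, 13.55 and 15.1 CPM (1.05 ± 0.46). In both of these pairs the *Setd1a*+/- libraries lay above the WT libraries, on 8 to 38 UMIs.

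**Figure D5:**
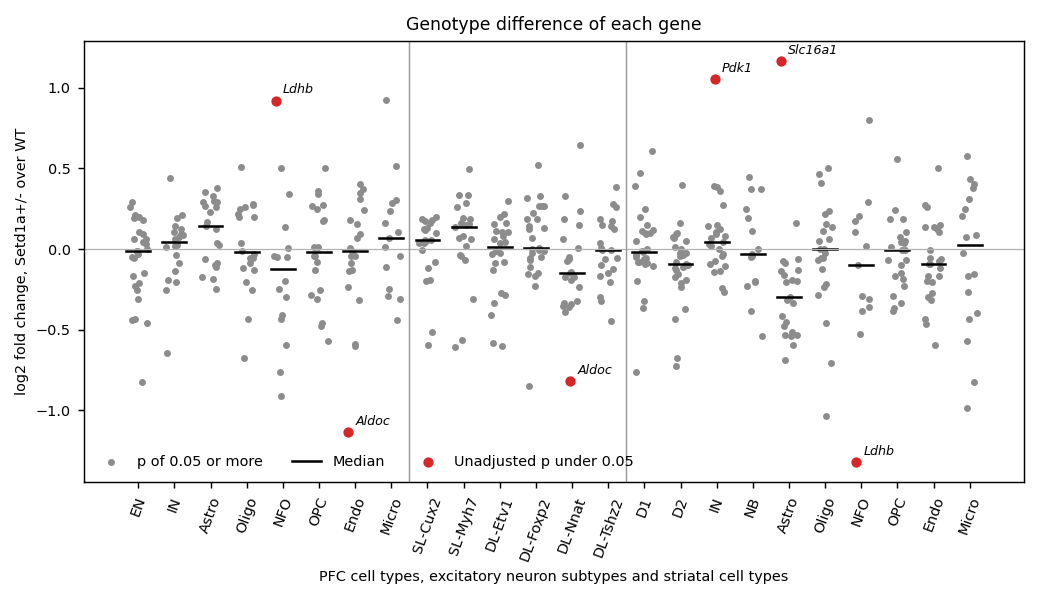
Log2 fold change of *Setd1a*+/- over WT for each member tested in 8 PFC cell types, 6 excitatory neuron subtypes and 10 striatal cell types, one point per gene and a bar at the median, with the 6 pairs at an unadjusted p under 0.05 named. The medians lie between -0.30 in striatal astrocytes and 0.14 in PFC astrocytes.

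The fold change between genotypes followed the replicate split once 1 PFC library was left out. Each such fit left 1 genotype with a single library, which was assumed to vary like the other genotype's libraries. In PFC astrocytes *Gapdh* was at 106, 1067, 68.4 and 944 CPM, and its log2 fold change of *Setd1a*+/- over WT was -0.11 ± 0.90 with all 4 libraries, 2.41 ± 0.51 without WT replicate 2 and -3.24 ± 0.50 without *Setd1a*+/- replicate 2. *Eno1* in the same cells was at 116, 1327, 85.4 and 1603 CPM and gave 0.30 ± 0.96, 3.00 ± 0.51 and -3.22 ± 0.48. With all 4 libraries and the replicate block, astrocytes gave -0.28 ± 0.28 for *Gapdh* and 0.10 ± 0.28 for *Eno1*. In excitatory neurons the block gave -0.34 ± 0.22 for *Gapdh* and -0.32 ± 0.21 for *Eno1*, against 0.06 ± 1.44 and 0.03 ± 1.56 without it. Neither gene was called in these cells with the block. Over PFC types and subtypes the fits that each left out 1 library called 24 of 1268 pairs of members, all of them *Gapdh*, *Eno1* or *Pfkl*, beside 0.135% of the pairs of all genes. The 9 without WT replicate 2 and the 1 without *Setd1a*+/- replicate 1 were higher in *Setd1a*+/- mice, and the 14 without *Setd1a*+/- replicate 2 were lower.

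Other genes of the pathway, 55 further isozymes, transporters, glycogen enzymes and enzymes of the pentose phosphate pathway, were counted in the same tests, with the shares of all genes called in the same contrast in parentheses. Against excitatory neurons, PFC astrocytes had 14 of 38 tested higher and 8 lower (all genes 18.7 and 31.4%), endothelial cells 10 of 42 and 15 (25.2 and 29.6%), and microglia 14 of 39 and 11 (19.7 and 33.1%). Against D1 MSNs, the striatal astrocytes had 16 of 39 and 5 (21.8 and 19.1%), endothelial cells 13 of 39 and 10 (26.1 and 22.6%), and microglia 7 of 32 and 2 (13.8 and 6.62%). Between oligodendrocytes and OPCs 5 of 24 were higher and 4 lower in the PFC (16.2 and 18.6%), and 7 of 26 and 6 in the striatum (14.3 and 19.9%). *Slc2a1*, the glucose transporter GLUT1, was higher in the first type of all 8 contrasts. None was called between genotypes.

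Of 14 hypoxia response genes, 4 of 12 tested were higher and 3 lower in PFC astrocytes (18.7 and 31.4%), 6 of 12 and 2 in endothelial cells (25.2 and 29.6%) and 4 of 10 and 3 in microglia (19.7 and 33.1%), against excitatory neurons, with the same shares in parentheses. Against D1 MSNs the striatal counts were 6 of 12 and 1 (21.8 and 19.1%), 5 of 11 and 0 (26.1 and 22.6%), and 3 of 10 and 0 (13.8 and 6.62%). *Epas1*, the gene of hypoxia-inducible factor 2 alpha, was higher in all 6 of these contrasts. In oligodendrocytes against OPCs 3 of 10 were higher and 3 lower in the PFC (16.2 and 18.6%) and 3 of 9 and 3 in the striatum (14.3 and 19.9%), with *Epas1* lower in both. Between tissues 2 of 8, *Bnip3* and *Mxi1*, were lower in striatal interneurons, as were 5.9% of all genes, and none of the 14 was called between genotypes.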

How the data were processed

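The 32 members and all other lists were chosen with earlier results of these data known. Per the labels and methods, the authors made one matrix of raw UMI counts per library with Cell Ranger 3.0.2 on mm10. The deposited counts are whole numbers per gene and barcode, without normalization and with all droplets. Deposited barcode, gene and cell tables hold other information than measurements, namely names, the library and the authors' cell type after filtering (at least 800 genes, at most 10% mitochondrial UMIs) and integration in Seurat 3.2.0. Gene-by-cell tables whose gene column holds row numbers were not used.

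Counts of annotated cells were summed per library and type with at least 10 cells in every library (Python 3.11.15, pandas 2.3.3, numpy 2.4.6, scipy 1.17.1, matplotlib 3.10.9). Sums were tested over all genes in R 4.3.3 with edgeR 4.0.16 (quasi-likelihood test, TMM, low-count filter filterByExpr at min.count 10, FDR by Benjamini-Hochberg over the genes of a fit). Genotype was tested within a tissue, tissue with genotype as a term, and cell types with the library as a block. No doublet caller was run, and cells above 2 times the median UMIs were left out as an alternative. The study tested single cells, which are not replicates, so that test was not run. DESeq2 1.42.0 was an alternative. Tests were tried on simulated data first. A gene was named with its library values if called between tissues or genotypes, at an unadjusted p under 0.05 between genotypes, or at least 3 times the median over types in 1 type, and in cell type contrasts if among the 3 largest changes called in a direction. *Ldha*, *Mpc1*, *Pgk1* and the subtype values, and *Gapdh*, *Eno1* and *Pfkl* by replicate, were chosen after the values were seen. A count of 0 allows up to 3 UMIs, which covers counting error only.

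By the methods a biological replicate comprised a WT and a *Setd1a*+/- sample, so equal sample numbers within a tissue were taken as pairs. Between tissues the block also joined equal numbers of PFC and striatum, which the methods do not tie. The deviations of same-numbered libraries from their genotype mean correlated across genes at a median of 0.51 over PFC types, 0.65 over excitatory neuron subtypes and 0.41 over striatal types. The replicate block is given where it changed a call, and for *Gapdh* and *Eno1* between genotypes in PFC astrocytes and excitatory neurons. The other pathway genes between tissues are not reported here. Gene positions are from GENCODE vM21, and sequences from RefSeq; 30 of 32 members had a promoter entry.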

Additional observations from a re-analysis of the deposited data

How the results depend on the processing

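Counts of members called kept within 1.5 times of the reported ones under RLE factors, library size alone and DESeq2, for the genotype, tissue and cell type comparisons. Without a filter on low counts the tissue count was 46 in place of 18, beside 6.16% of the pairs of all genes in place of 6.63%. Of the 29 pairs called only there, 24 had been tested with the filter, and their median SE was 0.22 in place of 0.54. Among the 29 were *Gapdh* in every type found in both tissues and several pairs of *Eno1*, *Eno2* and *Pfkl*, beside pairs of other members. These 4 genes are those with the replicate split of 2-fold or more in the PFC, and its part in the added calls was not tested. The count was 12 without cells above 2 times the median UMIs, and without both PFC replicate 1 libraries, an alternative chosen after seeing the data, it was 10. The replicate block gave 1 call in place of 0 between genotypes in PFC cell types (*Aldoc*, endothelial cells) and 24 in place of 18 between tissues, and it changed no other call between genotypes. In cell type contrasts, where the library is a block, leaving that block out kept the counts within 1.5 times. Leaving out 1 library at a time gave 0 to 8 calls between genotypes in PFC types, 0 to 6 in excitatory neuron subtypes, 0 to 3 in striatal types, 8 to 26 between tissues and 4 to 8 for striatal microglia against D1 MSNs, whose reported counts are 0, 0, 0, 18 and 7. The lowest tissue counts were 8 without PFC WT replicate 1, 9 without striatal WT replicate 2 and 10 without striatal WT replicate 1. The share of all genes is given above for the PFC genotype fits and is not given for the other fits that left out 1 library. The 3 striatal calls without *Setd1a*+/- replicate 1 were *Aldoc* and *Slc16a1* in endothelial cells and *Eno2* in oligodendrocytes, and the 1 without WT replicate 1 was *Ldhb* in newly formed oligodendrocytes; their cause was not tested. The rule for named genes gave 70 log2 fold changes. In 809 refits of these, 734 stayed on their side of the threshold, 73 were no longer called, 2 became called and none changed sign. *Gapdh* and *Eno1* between genotypes in PFC astrocytes, named outside the rule, did change sign when 1 library was left out. Depth limits *Pdk4*, *Slc16a3*, *Pygm* and *Pdk2*, which had 0 to 5 UMIs in some libraries of the types named.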
